A study of Rattus norvegicus with 14 samples.

Results

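The genes described here are 8 rat genes of retinoid handling: Rbp4, Stra6, Crabp1, Crabp2, Aldh1a2, Rara, Rarb and Rarg. They were chosen by name, as every non-control probe that the array annotation gives to one of these genes. Each gene had exactly 1 probe, so the set holds 8 of the 41012 distinct probes on the array. RNA was measured in 7 rat cell lines on 14 one-colour arrays, of which every line had an A and a B array. The blastocyst-derived lines were Fi1 (Fischer, male), Fi2 (Fischer, female) and Wk8 (Wistar-Kyoto, female). The bone marrow-derived lines were CL19 (Fischer, female), 3C3 (Fischer, male) and RMAPC-1 (Fischer, male). The mesenchymal control was the single line RClone-2 (Fischer, male), and the labels give no treatment or genetic change for any line. By the title, the study asked whether cells with features of the early hypoblast, also called primitive endoderm, can be derived from both sources, and the 6 blastocyst and bone marrow lines are called stem cell lines below.

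Retinol, or vitamin A, travels in blood bound to the carrier Rbp4 and enters cells through the membrane receptor Stra6. Inside the cell it is oxidised to retinaldehyde and then, by enzymes such as Aldh1a2, to retinoic acid, which Crabp1 and Crabp2 bind in the cytoplasm. Retinoic acid is the ligand of the nuclear receptors Rara, Rarb and Rarg, which act on DNA together with RXR partners, and enzymes of the Cyp26 family break it down. In the mouse embryo the visceral endoderm, a derivative of the primitive endoderm, is known to make Rbp4.

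The probes whose values carry the results below are shown 5′ to 3′ in lower case as the deposited annotation gives them, so that a reader can see which stretch of each transcript was measured. Those for Stra6 and Crabp1 are given whole and the other 3 by their leading bases. Positions are on the rn4 build, as listed in the scanner files.
Stra6, chr8:61936895-61936954: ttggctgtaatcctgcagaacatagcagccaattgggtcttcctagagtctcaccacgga
Crabp1, chr8:58320823-58325131: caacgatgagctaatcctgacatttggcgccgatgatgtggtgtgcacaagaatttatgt
Crabp2, chr2:180033998-180034057: ccagagaggggcagactaccaaagctcaga
Rarb, chr15_random:319377-319436: tcagaatttgtaccaggtataccccagagc
Rbp4, chr1:242443888-242443947: ctcccttctctaggtggacattaaaaccat
Each probe is 60 bases long. The listed interval of the Crabp1 probe covers 4309 bases, far more than its own length, so the probe lies across a gap in the genome, and that of the Rara probe (chr10:87749901-87750101) covers 201 bases. The Rarg probe lies at chr7:140995729-140995788 and the Aldh1a2 probe at chr8:75771061-75771120. The positions of Rbp4 and Rarg are listed in descending order and those of the other 6 in ascending order. A hybridization probe cannot tell RNA of the named gene from RNA of the same letters elsewhere, and splice forms that lack the probe are not measured.

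All levels are log2 processed signals minus the 75th percentile of the same array, so 0 marks that percentile and a difference of 1 is a doubling. In signal units that percentile ranged over 745.7 to 891.5 for blastocyst, 558.9 to 660.1 for bone marrow and 599.0 to 630.7 for mesenchymal arrays. Between 61.8% and 68.1% of spots per array were well above background, and no member was saturated on any array. Levels of different probes are not comparable, so each gene is compared only across lines. The line is the unit of replication (n = 3, 3 and 1), and since the labels do not say whether arrays A and B came from separate cultures, precision is limited by how few lines there are. The fit assumes that RClone-2 varies like the other lines. In such bulk RNA, fewer cells that carry a transcript and less transcript per cell cannot be told apart.

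Marker genes were checked against the labels. All 6 primitive endoderm markers were above background on all arrays of the blastocyst and bone marrow lines. Their summed level was 124 to 158 and 171 to 208 times the 75th percentile, against 0.947 to 0.963 in RClone-2. There 5 of them were above background on both arrays and Sox7 on neither. The 6 mesenchymal markers summed to 0.626 to 0.754 in blastocyst lines, 1.00 to 1.30 in bone marrow lines and 317 to 428 in RClone-2, where all were above background. Col1a1, Col1a2 and Twist1 of that list were above background on every stem cell array, and Thy1 and Postn on none. The visceral endoderm markers summed to 4.67 to 50.8 in blastocyst lines, 90.3 to 161 in bone marrow lines and 0.189 to 0.251 in RClone-2. All of them but Afp and Ttr were above background on both RClone-2 arrays. The parietal endoderm markers were above background in all 3 groups. Of the 5 haematopoietic markers with a probe, 1 was above background on all arrays of each group, and Itgam and Cd3e were at none.

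**Figure D1:**
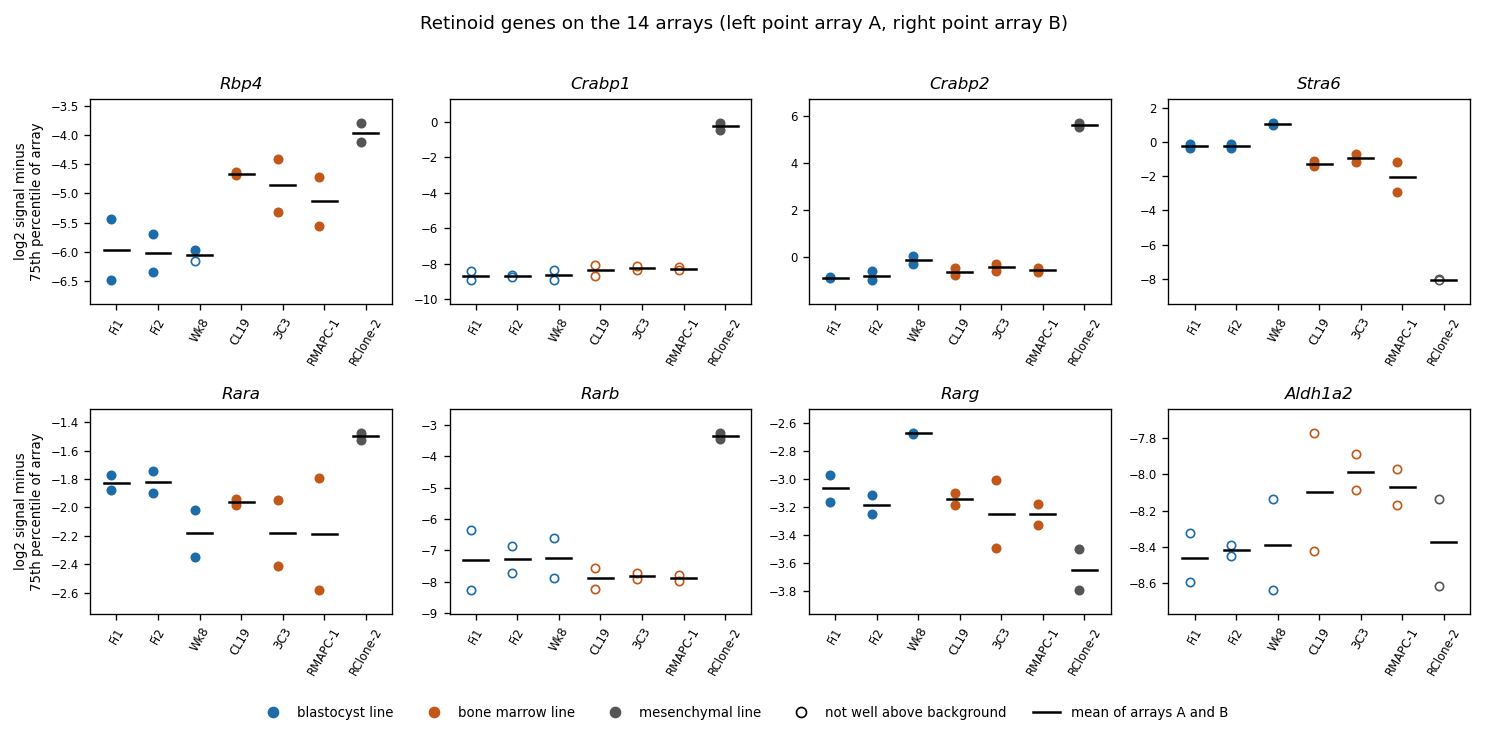
Level of each of the 8 genes on each array (log2 signal minus the array's 75th percentile, vertical scale set for each gene), with lines grouped as blastocyst, bone marrow and mesenchymal, open circles for values not well above background and bars for the mean of arrays A and B. Stra6 was high in every stem cell line and not above background in RClone-2, while Crabp1 and Rarb were above background in RClone-2 alone.

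The comparison of the 6 stem cell lines with RClone-2 asked how lines with primitive endoderm features differ from a mesenchymal line. In the stem cell lines the retinol receptor Stra6 was at least 53.0-fold higher, while the retinoic acid carrier Crabp1 was at least 63.6-fold lower and the receptor gene Rarb at least 7.45-fold lower. The related carrier Crabp2, measured in both groups, was 73.1-fold lower. The retinol carrier Rbp4 was 2.82-fold lower. The other receptor genes, Rara and Rarg, were above background on all 14 arrays and did not pass the test. Aldh1a2 was above background on none. Of the 7 members measured, meaning well above background on arrays A and B of some line compared, 5 passed at an adjusted p under 0.05, 1 higher and 4 lower, while 47.7% of all 29300 probes tested passed (25.3% higher and 22.5% lower). The same 5 of 7 passed in those directions for the blastocyst lines alone, where 49.2% of probes passed (23.1% higher and 26.1% lower), and for the bone marrow lines alone, where 47.9% did (27.5% higher and 20.4% lower). Crabp1, Rarb and Stra6 entered the test only through the group where they are high, so their calls add nothing to that count. The 4 members measured in both groups had a median difference of -1.01, and 2 of them passed. Of all calls 52.9% were higher in the stem cell lines, against 63.6% without scaling and 29.2% after scaling by spiked-in transcripts.

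Stra6, the cell-surface receptor that takes up retinol from Rbp4, was on every stem cell array between -2.94 and 1.14, with a median of -0.52. RClone-2 gave -8.04 and -8.10, and neither value was well above background. The stem cell arrays thus all lay far above the mesenchymal ones, and only a lower limit of the fold can be given. Measured against the lowest signal called above background on the RClone-2 arrays, Stra6 was at least 53.0-fold higher. The fitted difference had a limma adjusted p of 2.2e-04. Here and below, a p-value beside a limit belongs to the fitted difference, which takes values not above background as measured. It does not test the limit. The limit was 93.0-fold for the blastocyst lines alone and 30.2-fold for the bone marrow lines alone.

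Within the stem cell lines Stra6 was ordered by line. Wk8 was highest, with 1.00 and 1.14 on its arrays A and B. Fi1 gave -0.13 and -0.31 and Fi2 gave -0.12 and -0.33, so these lines did not differ beyond the spread of their arrays. The bone marrow lines came next, with -1.17 and -0.70 in 3C3 and -1.12 and -1.41 in CL19, which overlap. RMAPC-1 gave -2.94 on array A and -1.13 on array B, the widest gap between arrays of any line for this gene, so its place below CL19 rests on 1 array. Every blastocyst array lay above every bone marrow array. The line means averaged 0.21 ± 0.75 in blastocyst lines and -1.41 ± 0.56 in bone marrow lines (SD, n = 3 lines each).

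Blastocyst and bone marrow lines were compared to ask how far the source of the lines shows in these genes. Stra6 was 3.08-fold higher in blastocyst lines (log2 difference 1.62 ± 0.45, SE, limma adjusted p = 0.0399), and Rbp4 was 2.19-fold lower (-1.13 ± 0.15, adjusted p = 0.00763). Crabp2, Rara and Rarg did not pass, and Crabp1, Rarb and Aldh1a2 were not well above background in either group, so no fold is given for them. The 2 of 5 measured members that passed compare with 32.9% of 27753 probes (9.55% higher and 23.4% lower), and the median difference was 0.17 for the members and -0.19 over those probes. The split of all calls depended on the scaling: 28.2% of calls were higher in blastocyst lines, 84.7% without scaling and 17.8% after scaling by spiked-in transcripts. The median difference of all probes was -0.20 as scaled here, 0.28 without scaling and -0.39 with spiked-in transcripts.

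The Stra6 call held in fewer alternatives than the Rbp4 one. In size the Stra6 difference ran from 1.19 to 2.10 over the alternatives and the Rbp4 one from -1.35 to -0.19. Leaving out any 1 of the 6 stem cell lines ended the Stra6 call, with differences of 1.19 to 1.86 and adjusted p up to 0.106. Stra6 passed in 8 of 22 alternatives with the same sign in all. Fits without RClone-2, or with another filter or variance model, keep this estimate by design, so their sign adds nothing. CL19 is the only bone marrow line that shared slides with the blastocyst lines. On slides 1 and 3, the blastocyst arrays averaged 1.38 and 1.58 above CL19. With slide as a fixed term over the single arrays, and line as a random block, the difference was 1.48 (adjusted p = 0.129).

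**Figure D2:**
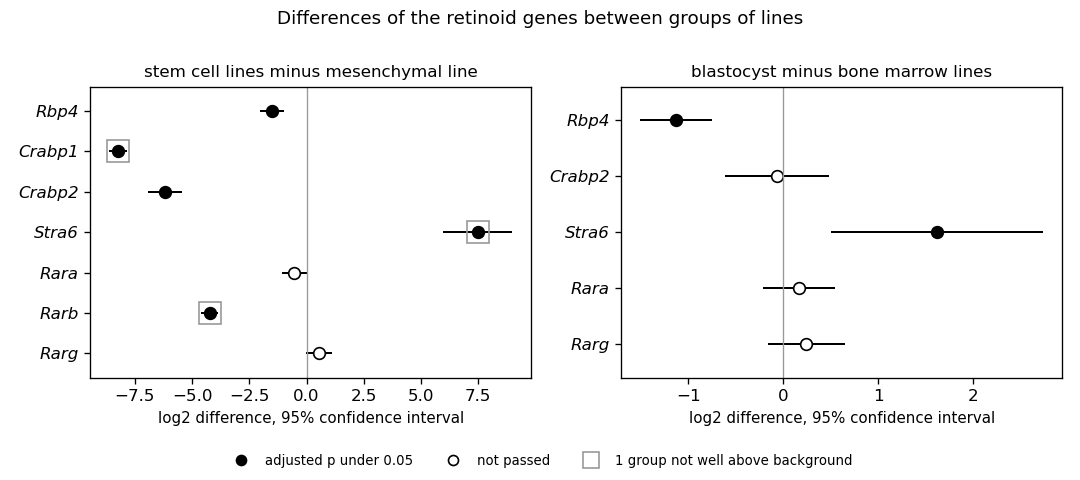
Log2 difference of each member above background in at least 1 compared line, with its 95% confidence interval, for the stem cell lines minus RClone-2 (left) and the blastocyst minus the bone marrow lines (right). Filled circles passed at an adjusted p under 0.05, and a square marks genes with 1 group not well above background, whose fitted difference is not a bound; on the left Stra6 lies to the right of 0 and Crabp1, Crabp2, Rarb and Rbp4 to the left.

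Rbp4, the serum carrier of retinol, was dim in all lines, with processed signals of 9.52 to 19.6 units in blastocyst lines, 14.04 to 27.8 in bone marrow lines and 36.1 to 43.3 in RClone-2. The blastocyst lines gave -5.44 and -6.49 in Fi1, -5.70 and -6.35 in Fi2, and -6.15 (not well above background) and -5.97 in Wk8. The bone marrow lines gave -4.64 and -4.69 in CL19, -4.40 and -5.32 in 3C3, and -4.71 and -5.55 in RMAPC-1. The line means of the groups did not overlap, with -6.02 ± 0.05 in blastocyst and -4.89 ± 0.24 in bone marrow lines (SD, n = 3 each), but single arrays did, since Fi1 array A lay above RMAPC-1 array B. The arrays of 1 line differed by up to 1.05, close to the size of the difference between groups.

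RClone-2 had the highest Rbp4 level, -3.79 and -4.13, above all 12 stem cell arrays. Rbp4 was 4.17-fold lower in blastocyst lines than in RClone-2 (adjusted p = 6.4e-04) and 1.90-fold lower in bone marrow lines (adjusted p = 0.0139, but 0.0544 without RMAPC-1 array A). The difference between blastocyst and bone marrow lines kept passing in 19 of 22 alternatives, among them the fit without RClone-2, which cannot change it. It was -1.13 and -1.58 against CL19 within slides 1 and 3. It ended with normexp background correction, which adds an offset of 50 units to these dim signals (-0.19), with a term for the slide pair, slides 1 and 3 against 2 and 4 (-1.35, adjusted p = 0.0729) and on the B arrays alone (-1.08, adjusted p = 0.0588). The summed level of the 6 visceral endoderm markers, given above, was also lower in blastocyst than in bone marrow lines, but 3 of them (Afp, Apoa1 and Ttr) had higher values there and 1, Apob, passed as lower (median difference -0.25). Their part in the Rbp4 difference was not tested.

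Crabp2, which carries retinoic acid to its nuclear receptors, gave 357 to 922 signal units on the stem cell arrays, all above background, against 31237 and 29191 units in RClone-2. On the log2 scale these were -0.99 to 0.05 with a median of -0.60, against 5.70 and 5.53 in RClone-2. The groups lay far apart, and Crabp2 was 73.1-fold lower in the stem cell lines (-6.19 ± 0.29, adjusted p = 2.4e-05). Blastocyst lines averaged -0.60 ± 0.41 and bone marrow lines -0.54 ± 0.09 (SD, n = 3), a difference of -0.06 with a 95% interval of -0.60 to 0.48. The sign of that small difference turned in several alternatives. Wk8 had the highest line mean, with 0.05 and -0.31 on its arrays, and Fi1 the lowest, with -0.86 and -0.91.

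Crabp1, the related cytoplasmic carrier, was not well above background on any of the 12 stem cell arrays, which gave -8.94 to -8.06 with a median of -8.40. RClone-2 gave -0.05 and -0.45, signals of 580 and 461 units. Stem cell lines were at least 63.6-fold lower than RClone-2 (adjusted p = 1.0e-06), and the limit was 73.2-fold for blastocyst and 55.3-fold for bone marrow lines. Both carriers thus had their highest level in RClone-2, but Crabp2 remained measurable in every stem cell line and Crabp1 did not.

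Of the receptor genes, Rara was above background throughout. Its arrays gave -1.88 and -1.77 in Fi1, -1.90 and -1.74 in Fi2, and -2.02 and -2.35 in Wk8. The bone marrow arrays gave -1.98 and -1.94 in CL19, -2.42 and -1.95 in 3C3, and -2.58 and -1.79 in RMAPC-1. RClone-2 gave -1.52 and -1.47. Every stem cell array lay below the RClone-2 arrays, but the difference of -0.53 ± 0.20 (95% interval -1.02 to -0.04) had an adjusted p of 0.0710. Between blastocyst and bone marrow lines it was 0.17 (95% interval -0.20 to 0.54, adjusted p = 0.420).

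Rarg, the receptor gene with a known role in epithelia, gave -3.25 to -2.67 over blastocyst arrays with a median of -3.05. Bone marrow arrays gave -3.50 to -3.01 with a median of -3.18, and RClone-2 gave -3.51 and -3.80. Wk8 was again the highest line, with -2.67 and -2.68, above all other arrays. The stem cell lines minus RClone-2 gave 0.55 ± 0.21 (95% interval 0.03 to 1.08, adjusted p = 0.0764), with no overlap of the arrays. Between blastocyst and bone marrow lines the difference was 0.24 (95% interval -0.15 to 0.64, adjusted p = 0.287). For both genes the unadjusted intervals against RClone-2 leave out 0 while the adjusted p misses the threshold. The call depends on scaling and, for Rarg, on other settings. Rara passed against RClone-2 with quantile normalization and with spiked-in transcripts (-0.64 and -1.01). Rarg passed without scaling (0.76) and without Wk8 (0.48, adjusted p = 0.0414). It also passed over single arrays with line as a random block and on the B arrays alone.

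Rarb, a receptor gene known to be induced by retinoic acid in many cell types, was not well above background on any stem cell array, at -8.27 to -6.36 with a median of -7.76. RClone-2 gave -3.44 and -3.24, at 55.1 and 66.7 signal units, above background on both arrays. Stem cell lines were at least 7.45-fold lower than RClone-2 (adjusted p = 4.8e-06), and the limit was 8.55-fold for blastocyst and 6.49-fold for bone marrow lines. The limit is small because the RClone-2 signal was itself dim, and with normexp the fitted difference shrank to -0.82 and no longer passed (adjusted p = 0.221). Mesenchymal markers move with Crabp1, Crabp2 and Rarb in this comparison, and their part in these results was not tested.

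The bone marrow lines 3C3 and RMAPC-1 shared slides 2 and 4 with RClone-2, whereas no blastocyst line did. Within these slides, their mean minus RClone-2 was -6.17 and -6.07 for Crabp2, close to the difference over all lines. For Rbp4 it was -0.77 and -1.31, for Rara -0.98 and -0.40, and for Rarg 0.17 and 0.62, so these smaller differences varied between slides but kept their sign. Stra6 was above background on every array of both lines and on neither of RClone-2, and Crabp1 and Rarb the reverse.

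Aldh1a2, the retinaldehyde dehydrogenase that makes retinoic acid in much of the embryo, gave -8.64 to -7.77 over all 14 arrays and was above background on none, so it was left out of the tests. Its level in these lines was not detectable at this signal over background.

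The windows upstream of the gene starts of Stra6 and Rarb are shown because these genes lie on opposite sides of the comparison with RClone-2. They come from RefSeq on the GRCr8 build, in which all 8 members matched, with 9 windows in all since Rarg has more than 1. Capitals mark the core hexamers of receptor binding searched on both strands, namely AGGTCA, the form spelled GGGTCA and the form spelled AGTTCA.
Stra6, chr8:67444507-67444756, plus strand: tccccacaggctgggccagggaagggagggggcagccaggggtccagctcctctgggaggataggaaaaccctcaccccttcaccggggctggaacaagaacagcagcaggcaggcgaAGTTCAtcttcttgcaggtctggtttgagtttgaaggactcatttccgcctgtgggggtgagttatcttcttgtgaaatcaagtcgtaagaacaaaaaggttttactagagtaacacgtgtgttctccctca
Rarb, chr15:11336142-11336391, plus strand: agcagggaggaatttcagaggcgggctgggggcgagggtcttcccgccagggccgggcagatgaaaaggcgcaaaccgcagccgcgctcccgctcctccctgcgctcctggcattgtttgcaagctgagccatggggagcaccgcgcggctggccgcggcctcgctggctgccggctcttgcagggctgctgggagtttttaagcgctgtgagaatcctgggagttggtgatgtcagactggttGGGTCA
In windows of 250 bases before to 50 after the start, a hexamer was found for 4 of the 8 members, Stra6, Rara, Rarb and Rarg, and in 37.6% of all 33469 windows. None of the 9 windows held a direct repeat of these hexamers spaced by 1, 2 or 5 bases. In the order of spacing, 0.185%, 0.0837% and 0.0717% of all windows held one. Direct repeats are the arrangement known to bind the receptors. Other spellings of the hexamer were not searched, so a repeat that includes one would be missed here. In Rarb an AGTTCA at position 35 after the start lies beyond the stretch shown. These matches describe letters only.

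Other genes of retinoid handling were taken from 5 lists with 40 genes, of which 27 were measured in the comparison with RClone-2. Against RClone-2, 6 were higher, 5 were lower and 16 did not pass in the stem cell lines, beside 47.7% of all probes that passed. The median difference of the 27 was 0.06, or 0.00 with genes that were dim in 1 group placed at their bound, and 0.04 over all probes. Between blastocyst and bone marrow lines 4 of 26 were higher, 3 were lower and 19 did not pass, beside 32.9% of all probes that passed. Of these genes, 7 of the 27 and 4 of the 26 were dim in 1 of the compared groups, among them Ttr and Aldh1a1 against RClone-2 and Lrat between the sources. Such genes entered only through the group where they are high, so their calls add nothing to the counts. The median there was 0.08, or -0.01 with bounds, against -0.19.

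In the list of retinol binding and transport, 1 of 6 genes was higher in the stem cell lines than in RClone-2 and 5 did not pass. Of all probes 47.7% passed in that comparison. Ttr, which binds Rbp4 in blood, gave -5.74 to -2.32 on the stem cell arrays with a median of -4.66, all above background, against -8.01 and -8.45 in RClone-2, neither above it. It was at least 3.88-fold higher (adjusted p = 0.00309). Between blastocyst and bone marrow lines 1 gene was higher, 1 was lower and 4 did not pass, beside 32.9% of all probes that passed. Lrat, the enzyme that stores retinol as an ester, was above background on all 6 blastocyst arrays and on no bone marrow array, at least 4.36-fold higher (adjusted p = 0.0136). It ranged widely within the blastocyst lines, from -5.84 on Wk8 array A to -2.02 on Fi1 array A. Without 3C3 it no longer passed (adjusted p = 0.0517), nor did it with normexp or with the slide pair term. Rbp3, a retinoid carrier of the retina, was 1.45-fold lower (adjusted p = 0.0203). Rbp3 did not pass without Fi1, Fi2, CL19, RMAPC-1 or 3C3, with a highest adjusted p of 0.0680. Its signals were dim and similar, at 15.6 to 18.4 units on blastocyst and 15.5 to 21.0 on bone marrow arrays. The call also ended with normexp, with quantile normalization and without scaling. It ended too with the 75th percentile taken over probes above background on all arrays. Over the alternatives the difference ran from -0.75 to -0.06.

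Of 9 measured genes of retinaldehyde and retinoic acid synthesis, 3 were higher, 3 were lower and 3 did not pass in the stem cell lines against RClone-2, where 47.7% of all probes passed. Adh7, an alcohol dehydrogenase that can oxidise retinol, was lower, with a fitted log2 difference of -9.47 ± 1.43 (adjusted p = 0.00294). It was above background on 4 of 6 blastocyst and 3 of 6 bone marrow arrays, and the values of the other 5 enter the fit as measured, so the size is uncertain. The stem cell arrays gave -8.44 to -3.91 around a median of -6.09, against 3.60 and 3.07 in RClone-2. Aldh1a1, a dehydrogenase that makes retinoic acid, was above background on 11 of the 12 stem cell arrays and neither array of RClone-2, at least 3.00-fold higher (adjusted p = 0.0227). Its call ended with slide as a term over arrays (adjusted p = 0.0756) and with the slide pair term (0.107). It also ended with normexp and on the A arrays alone. Rdh10, which oxidises retinol to retinaldehyde, was 3.46-fold higher in the stem cell lines (adjusted p = 0.00545) and also 3.11-fold higher in blastocyst than in bone marrow lines (1.64 ± 0.24, adjusted p = 0.00930). Both calls ended on the B arrays alone and with slide as a term over arrays (adjusted p = 0.0672 against RClone-2 and 0.0974 between the sources). The call between the sources also ended with the slide pair term and without RMAPC-1 array A. Single arrays of the sources overlapped, since RMAPC-1 array B (0.60) lay above Fi2 array B (0.12). Between the sources 2 of 8 genes of the list were higher, 1 was lower and 5 did not pass, beside 32.9% of all probes. Rdh11 was 1.44-fold higher (adjusted p = 0.0360) and did not pass without any 1 of the 6 stem cell lines. Bco1, which cleaves beta-carotene to retinaldehyde, was 3.45-fold lower by its brightest probe (adjusted p = 0.0105), whereas its other probe gave -0.25 and did not pass. The call ended with slide as a term over arrays (adjusted p = 0.0609) and with the slide pair term (0.113).

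The genes of retinoic acid breakdown split. Cyp26a1 was 526.2-fold higher in the stem cell lines than in RClone-2 (9.04 ± 1.07, adjusted p = 0.00109), with line means of 4.09 in Fi1, 4.10 in Fi2, 6.43 in Wk8, 2.77 in CL19, 4.09 in 3C3 and 2.04 in RMAPC-1, against -5.12 in RClone-2. Its RClone-2 signals were dim, and the difference ran from 6.72 to 9.48 over the alternatives, so the fold depends on the processing. Cyp26b1 was lower, with a fitted log2 difference of -5.23 ± 0.85 (adjusted p = 0.00382). It was above background on 6 blastocyst, 3 bone marrow and 2 mesenchymal arrays. The other bone marrow values enter the fit as measured, so the size is uncertain. Over the alternatives it ran from -5.99 to -2.97. Both genes passed against RClone-2 in every alternative, but neither passed between blastocyst and bone marrow lines. Wk8 had the highest level of Cyp26a1, as of Stra6, Crabp2 and Rarg among the stem cell lines. Wk8 is also the only line of its strain, so line and strain cannot be told apart.

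**Figure D3:**
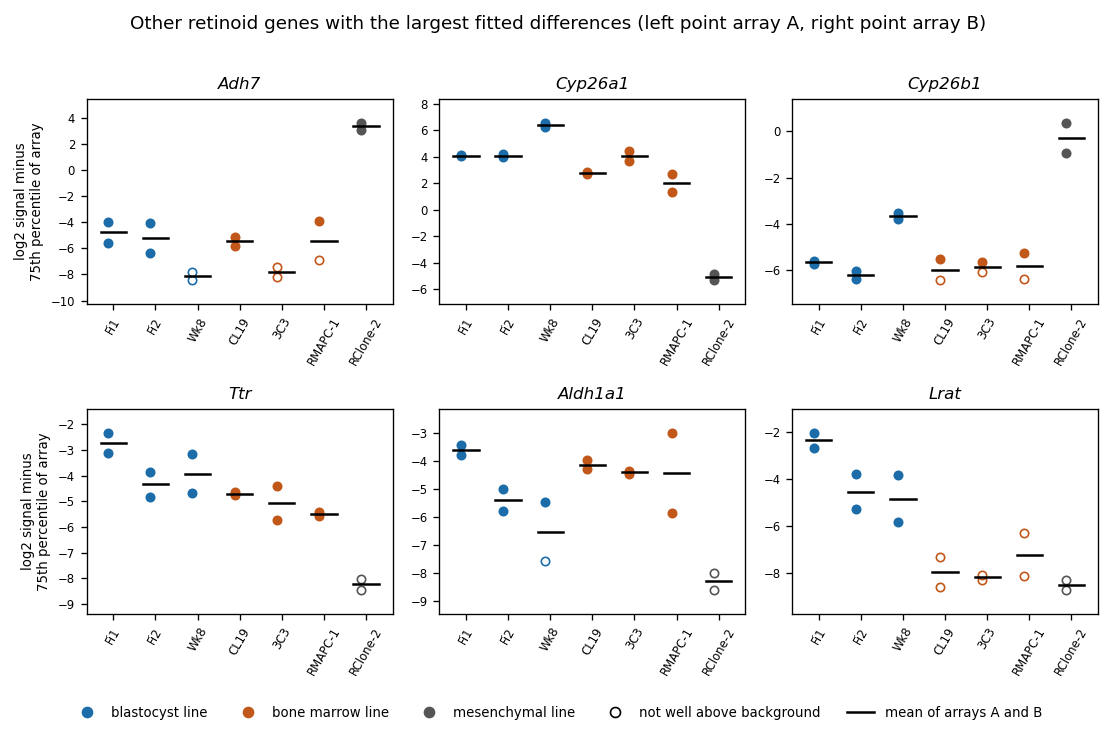
Level on each array (log2 signal minus the array's 75th percentile) of the 5 other retinoid genes with the largest fitted differences between stem cell lines and RClone-2, and of Lrat, with the largest fitted one between blastocyst and bone marrow lines. Open circles were not well above background and bars are means of arrays A and B; Cyp26a1, Ttr and Aldh1a1 lie above RClone-2 in every stem cell line, Adh7 and Cyp26b1 below it.

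Of 7 measured RXR partners and cofactors, 1 was higher, 1 was lower and 5 did not pass in the stem cell lines against RClone-2, again beside 47.7% of all probes. The coactivator gene Ncoa3 was 3.07-fold higher (adjusted p = 6.97e-04), and its other probe also passed. Nrip1, a gene for a corepressor, was 2.28-fold lower by its brightest probe (adjusted p = 0.0252), while its other probe gave -0.62 and did not pass. Between the sources 1 of 7 passed, beside 32.9% of all probes. It was Rxra, the DNA-binding partner of the receptors, 1.73-fold higher in blastocyst lines (0.79 ± 0.20, adjusted p = 0.0317). Its call ended without Fi1, Wk8, CL19, 3C3 or RMAPC-1, with adjusted p up to 0.0844. Either slide term ended it too.

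Of the 7 genes listed as known to respond to retinoic acid, 3 were measured in each of these comparisons. None of the 3 passed against RClone-2, where 47.7% of all probes passed. The list leaves out Rarb, described above as known to be induced by retinoic acid. Between blastocyst and bone marrow lines Tgm2, a transglutaminase, was 3.01-fold lower (-1.59 ± 0.38, adjusted p = 0.0273) and 2 did not pass, beside 32.9% of all probes that passed. The arrays of RMAPC-1 differed for Tgm2, with -0.72 on array A and 3.22 on array B. Tgm2 did not pass without Fi1, Wk8, CL19 or 3C3 (adjusted p up to 0.0807), nor with either slide term. Its call also ended without RMAPC-1 array B, on the A arrays alone, without scaling and over single arrays with line as a random block.

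**Figure D4:**
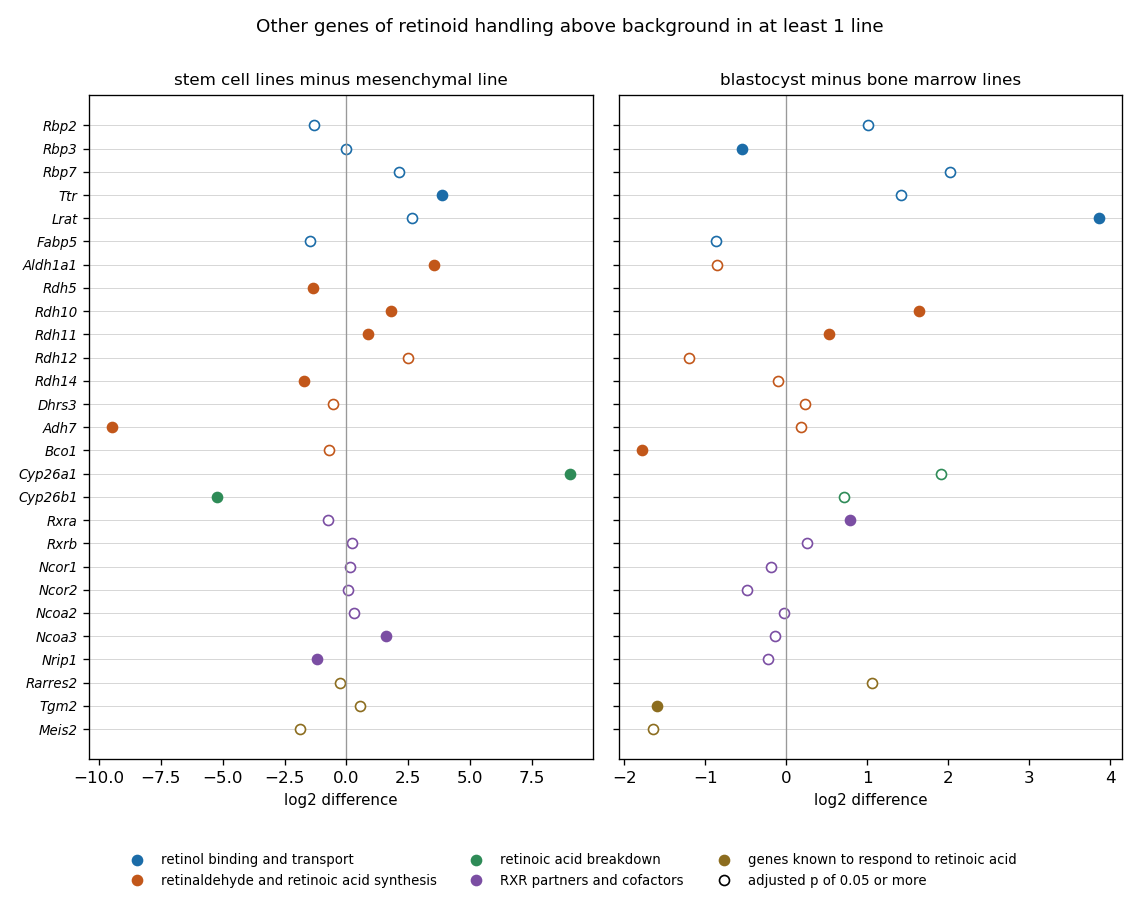
Log2 differences of the 27 other retinoid genes above background in at least 1 line, coloured by list, for the stem cell lines minus RClone-2 (left) and the blastocyst minus bone marrow lines (right, 26 genes), on separate horizontal scales. Filled circles passed at an adjusted p under 0.05; in both panels each of the larger lists holds values on both sides of 0.

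For the 5 members whose line means spanned over 2 on the log2 scale, the genes with the nearest pattern over the 7 line means were found by the root mean square difference after centring each probe. Crabp1 was nearest to Eps8 (0.0909), Bdnf (0.129) and Cntln (0.147), and Crabp2 to Fam161a (0.0986), Slc24a3 (0.121) and Dnm1 (0.135). Rarb was nearest to Cpt1a (0.214), Tmem106c (0.220) and Stk17b (0.223). The nearest to Rbp4 were Zmiz1 (0.126), Aste1 (0.186) and Ppp1r14bl (0.192). Stra6, with a span of 9.14, had less close neighbours, namely Clec10a (0.265), Rhbdl3 (0.381) and Cd24 (0.389). With 7 lines, of which 1 stands far apart, such likeness rests mostly on RClone-2.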

How the data were processed

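Total RNA of 7 lines, 1 µg with 10 spiked-in transcripts, was labelled with Cy3 and read on 14 one-colour arrays on 4 slides, per the labels. Per the file headers and the submitters' processing notes, Agilent Feature Extraction 10.7.3.1 produced the deposited intensity of each spot (a processed, background-corrected signal and a mean signal), with no scaling from array to array. Other deposited values are spot flags, 0 or 1. The authors' series table is in log2 and, once sorted, equals the log2 processed signal. Its row IDs did not match the scanner files' spots, so it was not used further.

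The 75th percentile over non-control spots was subtracted from each array's log2 processed signal, 65 to 193 outlier spots an array were dropped, and replicate spots were averaged. A probe was kept if arrays A and B of some line were both well above background, which left 29300 of 41012. Arrays A and B were averaged, and the 7 line means fitted with limma 3.58.1 in R 4.3.3 (residual degrees of freedom: 4). P-values of the 4 contrasts were adjusted over all probes kept by Benjamini-Hochberg, with a threshold of 0.05. The fit was tested on simulated data. Where a group was not above background, folds are bounds against the lowest signal called above background on its arrays. P-values beside these bounds are those of the fitted difference. The brightest probe stood for a pathway gene, and up to 3 passing genes per list with the largest differences were named. The members and lists were chosen with earlier results of these data known. Some genes of the lists are not reported here. Alternatives were other background corrections, scalings, filters, variance models, slide terms and left-out lines or arrays. Names and promoters are RefSeq's (GRCr8). Figures were drawn with matplotlib 3.10.9.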

Additional observations from a re-analysis of the deposited data

Results flagged for a closer look

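In the bone marrow lines, Stra6 on RMAPC-1 array A, at -2.94, lay apart from the other 5 arrays, of which the nearest was -1.41. The gap was 0.684 of the range, above the limit of 0.625 for 6 arrays, which about 1 in 20 groups passes by chance. Without that array the difference between blastocyst and bone marrow lines was 1.32 (limma adjusted p = 0.0569).

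A probe described as similar to retinoic acid receptor beta-2, which the choice by gene name did not take in, was above background on 5 of 14 arrays. It gave -4.00 on 3C3 array A and -4.54 on RMAPC-1 array B, above the higher RClone-2 array at -5.92. The other array of each line gave -6.38 in 3C3 and -6.03 in RMAPC-1, not well above background, so neither value was repeated.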

How the results depend on the processing

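Between blastocyst and bone marrow lines 2 measured members passed. This count was 0 with normexp background correction, with a term for the slide pair, on the B arrays alone and over probes above background on all arrays, where Rbp4 and Stra6 are not in the fit. It was 1 with quantile normalization, with slide as a term over arrays, on the A arrays alone and without either array of RMAPC-1, and 4 without scaling. Leaving out any of the 6 compared lines gave 1, and leaving out RClone-2, which is not compared here, 2. Of all probes, 32.4% passed in the main fit, 5.61% with normexp, 10.4% on the B arrays and 30.9% without scaling. Without 1 of the compared lines 12.2% to 24.3% passed. With the slide pair term 0 of 29300 probes passed by limma, 7577 with an unadjusted p under 0.05.

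Against RClone-2 5 members passed in each of the 3 comparisons, and 3 with normexp. Of these 5, Crabp1, Rarb and Stra6 entered only through the group where they are high. With normexp 23.8% of all probes passed for the stem cell lines, 22.4% for blastocyst and 23.3% for bone marrow lines. For the stem cell lines 6 members passed with quantile normalization, without scaling and with spiked-in transcripts. In that order, 48.2%, 50.3% and 44.3% of all probes passed. Over probes above background on all arrays, which hold 3 members, 1 passed for the stem cell lines, 2 for blastocyst lines and 2 for bone marrow lines. In the same order, 47.5%, 48.2% and 47.8% of those probes passed.

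Some differences that did not pass turned sign between blastocyst and bone marrow lines. Crabp2 gave 0.42 without scaling, 0.078 with the percentile over detected probes, 0.015 with either slide term, and -0.30 to 0.076 without a line. Rara gave -0.025 with spiked-in transcripts and -0.058 on the B arrays. Blastocyst lines minus RClone-2 gave 0.0016 for Rara without scaling. Over all genes named and alternatives run, 774 values kept direction and call, 91 lost the call, 21 gained it and 9 turned sign. The 774 include alternatives that cannot change a comparison, such as leaving out RClone-2 between the sources. Rbp4 against RClone-2 was lost in bone marrow lines in 5 of 21 alternatives. The causes were not tested. Dim signals limit Rbp4 and Rarb.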
